A study of Mus musculus with 24 samples.

Results

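Immunoglobulin heavy and light chain probe sets are the 76 of 12488 probe sets on the array whose first annotated gene symbol begins with Igh, Igk or Igl. Those whose first symbol is Igha, the IgA heavy chain, or the unrelated helicase gene Ighmbp2 are left out. The probe sets 97575_f_at and 99421_at list Igha after another symbol and are kept. The 76 comprise 25 probe sets for heavy chain constant regions, 11 for heavy chain variable segments, 36 for kappa light chains and 2 for the lambda light chain, grouped by first symbol. The remaining 2 belong to Igll1, a part of the surrogate light chain of B cell precursors, which the rule admits by its letters and which is described apart. Of the 76, 63 list 1 gene symbol and 13 list several, and a probe set that lists several is called here by its ID alone.

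Each antibody is built from paired heavy and light chains, and each chain joins a variable segment, which differs between B cell clones, to a constant region, which sets the class. B cells carry antibody on their surface, whereas plasma cells fill with immunoglobulin mRNA and secrete the protein. In the gut wall most plasma cells make IgA, and the mucosa of mice raised without microbes is known to hold few of them. A probe set whose probes match only a variable segment reads the part of the repertoire that uses that segment and its close relatives. Some kappa and heavy variable probe sets also list a constant region, such as 93086_at and 99421_at. Probe sequences were not used here, so which part these read is not known. Affymetrix marks a probe set whose probes match several members of a family with the ending _f_at, and 31 of the 76 carry it. Signal depends on a probe set's own probes, so the order of probe sets by brightness, which served to choose some of those named, does not give the order of their transcripts. The symbol printed beside an ID is that of the platform annotation, which cannot separate closely related segments or classes.

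The study compared the gastrointestinal tract of germ-free mice, which carry no microbes, with that of conventional mice, which carry a microbiota. Total RNA of whole tissue was hybridised to 24 arrays in 8 groups of 3, germ-free and conventional mice each giving stomach corpus, jejunum, descending colon and rectum. Strain, sex and age are not given in the sources used here. The labels say that all regions were taken from each mouse but do not tie an array to a mouse, so arrays of a state may share animals, and the tests below treat them as independent. Because the tissue is a mixture, fewer immunoglobulin-producing cells and less immunoglobulin RNA per cell cannot be told apart.

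Values are the deposited signal, a linear brightness per probe set. Array medians ran from 68.6 to 103.5. Signals under 21.2 were set to that floor before log2 was taken, and between 17.6% and 28.5% of probe sets lay at the floor on an array. Of the 76 immunoglobulin probe sets, 61 passed a filter that asked for a signal above 51.5 on at least 3 arrays, and 15 did not. On 3 arrays the markers of a region went against the label. Conventional jejunum array 3 had a signal of 13.8 for the enterocyte apolipoprotein Apoa4 and 1626 for the hindgut factor Hoxb13. Conventional rectum array 1 had 2766 for Apoa4 and 41.7 for Hoxb13, and germ-free corpus array 3 had 1399 for Hoxb13 and 176 for the gastric proton pump subunit Atp4a. The first pair of these arrays have markers of each other's region. Germ-free descending colon array 1 had a low Hoxb13 signal, 112, and germ-free rectum array 1 had 1968 for Atp4a. The hindgut marker signals of that colon array summed to 7241 and its jejunal ones to 5499, each the highest of its group. The main counts and medians are also given without the 3, and in places without all 5. Germ-free corpus array 2, not among these, had a hindgut marker sum of 1612, against 103 on germ-free corpus array 1.

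Several kappa and mu probe sets lay far above the floor. The kappa probe set 93086_at, which lists several symbols, among them the kappa constant region Igkc, averaged 5276 ± 3574 on germ-free and 6880 ± 3605 on conventional arrays (SD, n = 12 each). Igkc is also listed by other kappa probe sets named below, 102585_f_at and 97567_f_at. Igkv6-23 probe set 102156_f_at averaged 1204 ± 1008 on germ-free and 4219 ± 2962 on conventional arrays. Ighm probe set 99420_at, for the heavy chain of IgM, averaged 626 ± 781 on germ-free and 3151 ± 2077 on conventional arrays. These large SDs cover 4 regions and also a wide spread within groups. At the dim end, 3 of the 76 were at or under the floor on all 24 arrays, whereas 25 were above it on all 24. Fewer germ-free than conventional arrays were above the floor for 30 probe sets, more for 12 and an equal number for 34.

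Averaged within an array over the probe sets of a group, on the floored log2 scale, the jejunum separated the states in all 3 large groups. The 36 kappa probe sets averaged 6.05, 6.08 and 6.58 on the germ-free and 7.40, 7.80 and 7.38 on the conventional jejunum arrays. The 25 heavy constant ones averaged 5.33, 5.62 and 5.95 on the germ-free and 6.54, 6.99 and 6.69 on the conventional jejunum arrays. The 11 heavy variable ones averaged 5.73, 5.54 and 6.19 on the germ-free and 7.14, 6.90 and 7.54 on the conventional jejunum arrays. No germ-free jejunum array reached the lowest conventional one in any of these groups. In the corpus the kappa means were 5.41, 5.85 and 6.40 on the germ-free and 7.29, 6.14 and 5.27 on the conventional arrays, and the states overlapped. In the descending colon they were 5.44, 5.90 and 6.49 on the germ-free and 7.35, 6.74 and 6.14 on the conventional arrays. In the rectum they were 5.64, 5.76 and 7.22 on the germ-free and 8.45, 6.84 and 6.70 on the conventional arrays. In the descending colon and rectum a single germ-free array, number 3 in each, exceeded the dimmest conventional array.

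Averaged over the 4 regions, 14 of the 61 immunoglobulin probe sets tested fell in germ-free mice and 0 rose (limma, adjusted p under 0.05 over 9033 probe sets), where 0.864% of all tested probe sets were called lower and 0.819% higher. The median log2 difference, germ-free minus conventional, was -1.11 over the 61, against 0.03 over all probe sets tested. Without the filter it was -0.76 over all 76. The 14 were 7 heavy constant, 2 heavy variable and 5 kappa probe sets, and they made up 17.9% of the 78 probe sets of any gene called lower. Of the 14, Igh-VS107 97720_at and 101616_at had passed the filter through conventional arrays alone. No lambda or surrogate light chain probe set was among the 14.

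Among kappa chains, Igkv6-14 probe set 101331_f_at had the largest fall. Its signal ran from 2.9 to 173 with a median of 28.2 on the 12 germ-free arrays, and from 1.5 to 2524 with a median of 420 on the 12 conventional arrays. The log2 difference was -3.15 ± 0.57 (SE), an 8.86-fold lower level on the floored scale (adjusted p = 0.00716). The groups overlapped because of a single dark conventional array, corpus 3, at 1.5, and a bright germ-free array, rectum 3, at 173. Igkv8-19 probe set 93227_f_at fell by 2.40 on the log2 scale (adjusted p = 0.0209), with a mean of 64.2 ± 45.1 on germ-free and 440 ± 415 on conventional arrays. The other kappa probe sets called list several symbols. Of these, 101633_at, which lists Igk and also Asb2, a gene that encodes no immunoglobulin, fell by 2.00 (adjusted p = 0.0147), 101616_at by 1.45 (adjusted p = 0.0105) and 102585_f_at by 1.39 (adjusted p = 0.0274) on the log2 scale. The kappa probe set 97567_f_at was at 240 ± 151 on germ-free and 676 ± 418 on conventional arrays and missed the threshold (log2 difference -1.33 ± 0.38, adjusted p = 0.0799).

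Among heavy chain variable segments, Ighv3-6 probe set 96970_at fell by 2.81 ± 0.52 on the log2 scale (adjusted p = 0.00803). Its signal ran from 12.8 to 456 with a median of 34.1 on germ-free arrays, and from 14.4 to 823 with a median of 402 on conventional arrays. Most germ-free arrays sat near the floor, with rectum 3 again the exception, and corpus 3 was again the lowest conventional array. Igh-VS107 probe set 97720_at was at or under the floor on all 12 germ-free arrays and above it on 9 of 12 conventional arrays. Its mean was 7.07 ± 4.96 on germ-free and 61.4 ± 53.3 on conventional arrays, at least 2.43-fold lower in germ-free mice (adjusted p = 0.0147). This probe set had passed the filter through conventional arrays alone, the group in which it was higher. Its p is thus not independent of how it was admitted to the test. The call held without each array in turn but in only 6 of 9 other settings, with a limma adjusted p of up to 0.236. Ighv1-54 probe set 97563_f_at, at 121 ± 138 on germ-free and 533 ± 540 on conventional arrays, missed the threshold narrowly (adjusted p = 0.0507). Ighv5-12 probe set 98765_f_at was at 245 ± 85 on germ-free and 651 ± 573 on conventional arrays (adjusted p = 0.122).

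Heavy chain constant regions split by probe set. Of the 7 probe sets named for Ighg3, the IgG3 heavy chain, 97574_f_at fell by 2.71 (adjusted p = 0.0147), 93927_f_at by 2.50 (0.0137), 101752_f_at by 1.97 (0.0322) and 97008_f_at by 1.89 (0.0286) on the log2 scale. All of these are family probe sets. Ighg3 97574_f_at had a median of 46.0 on germ-free and 422 on conventional arrays, and 93927_f_at had 38.6 on germ-free and 356 on conventional arrays. The fifth tested, Ighg3 102721_at, was at 114 ± 22 on germ-free and 121 ± 52 on conventional arrays (log2 difference -0.01 ± 0.13, adjusted p = 0.968). Ighg3 102722_g_at and 102723_at did not pass the filter. Without the 3 arrays whose markers opposed their labels, Ighg3 101752_f_at and 97008_f_at were no longer called (adjusted p = 0.0522 and 0.0575). With arrays of a state that share a number as a random block, of these 4 only Ighg3 93927_f_at was still called, the others having an adjusted p of 0.0507 for Ighg3 97574_f_at, 0.106 for Ighg3 97008_f_at and 0.11 for Ighg3 101752_f_at with that estimated correlation.

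Ighm has 16 probe sets, 10 of them tested. Ighm 101871_f_at fell by 2.26 (adjusted p = 0.0231), 100377_f_at by 1.84 (0.0108) and 100362_f_at by 1.73 (0.0255) on the log2 scale, and these too are family probe sets. Ighm 100377_f_at ran from 7.6 to 70.7 with a median of 26.7 on germ-free arrays, and from 7.7 to 430 with a median of 133 on conventional arrays. Ighm 99420_at had a difference of similar size, -2.57 ± 0.76, with more spread, and was not called (adjusted p = 0.0885). Its median was 386 on germ-free and 2480 on conventional arrays.

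The other tested Ighm probe sets were not called. Ighm 101745_f_at had a log2 difference of -1.11, 97577_f_at of -0.77, 93584_at of -0.33, 93583_s_at of -0.30, 102159_at of 0.05 and 96966_at of 0.42 (adjusted p between 0.0885 and 0.947). Ighm 101346_at, 101870_at, 97568_at, 101749_at, 101276_at and 99885_at did not pass the filter. Ighd 101157_at, for the IgD heavy chain of naive B cells, went the other way in value, at 190 ± 70 on germ-free and 140 ± 28 on conventional arrays, and was not called (log2 difference 0.40 ± 0.17, adjusted p = 0.218). From corpus to rectum, it had 330, 156, 312 and 225 on the germ-free arrays numbered 3. It ran from 112 to 220 on the other germ-free arrays. The probe set 97575_f_at, which lists several constant region symbols, Igha among them, had a difference of -1.09 (adjusted p = 0.1).

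The count of 14 depended on single arrays. It was 26 without germ-free rectum array 3 (0.941% of all tested probe sets called lower), 25 without conventional corpus array 3 (0.886%) and 9 without conventional descending colon array 1 (0.387%), and between 10 and 17 without any other array. Of the 61, germ-free rectum array 3 was the highest of its group for 50 and conventional corpus array 3 the lowest for 32. The latter count does not set that array apart, as conventional descending colon array 3 was the lowest for 45 and germ-free descending colon array 1 for 40. These ranks were not counted over all probe sets. Without the 3 arrays whose region markers went against their labels, 13 were called lower, 12 of them among the 14, where 0.753% of all tested probe sets were. Without all 5 doubted arrays 5 were, all among the 14, where 0.653% of all were. The calls of Igkv6-14 101331_f_at, Ighv3-6 96970_at, Ighg3 93927_f_at and 101616_at held without each array in turn and in the 10 other settings tried. Of these, 101616_at had passed the filter through conventional arrays alone. With arrays of a state that share a number as a random block, 5 were called lower, where 0.177% of all were. In germ-free mice the arrays numbered 3 had the highest mean log2 signal of the 61 in all 4 regions. They also had the highest median over all probe sets in their groups, 102.5 in the corpus, 88.4 in the jejunum, 103.5 in the descending colon and 89.9 in the rectum. Their shares of probe sets at the floor were the lowest of their groups. The median of all probe sets was thus higher there too. The mean without the most extreme values hardly differed, at 199.94 to 199.952 on every array. Germ-free rectum array 3 had a median of 89.9, against 78.2 and 82.55 on germ-free rectum arrays 1 and 2. Its mean log2 signal of the 61 was 7.31, against 5.78 and 5.89. In the descending colon these were 103.5, against 79.35 and 93.8, and 6.46, against 5.54 and 6.03. The part of the median shift in the immunoglobulin signal of the germ-free arrays numbered 3 was not tested. Their deviations from the group means over all tested probe sets correlated between 0.16 and 0.455 in 6 of 6 pairs of regions, and the labels do not say what the number marks.

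Family probe sets accounted for 10 of the 14 calls and plain ones, with no ending before _at, for 4. Over all 31 family probe sets the median log2 difference without the filter was -1.50, with 30 below 0. Over all 37 plain probe sets it was -0.001, with 19 below 0. All 31 family probe sets but 1 passed the filter, against 25 of the 37 plain ones, and the part of level and of cross-hybridisation in this contrast was not tested.

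In single regions, no immunoglobulin probe set was called in any of the 4. In the jejunum, 28 of the 61 (45.9%) had an unadjusted p under 0.05, all lower, against 7.99% of all tested probe sets on that side, and 0 were called by limma, where 0.244% of all tested probe sets were called lower and 0.221% higher. The median log2 difference was -1.56 over the 61 and -1.11 over all 76 without the filter, against -0.02 over all tested probe sets. For 40 of the 76 the 3 germ-free arrays all lay under the 3 conventional ones, where 6.39% of all probe sets did so without the filter. The conventional arrays include jejunum array 3, which carries hindgut markers. Counts of this kind, here and in the other regions, were not redone without the arrays whose markers opposed their labels. The 40 were 12 heavy constant, 4 heavy variable and 24 kappa probe sets. Dropping conventional jejunum array 3 together with the other 2 contradictory arrays left the median at -1.45, with 1 called lower, Igkv15-103 101329_f_at, where 0.277% of all tested probe sets were.

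Jejunal values show the separation. Ighv3-6 96970_at had 12.8, 14.3 and 29.6 on the germ-free arrays and 452, 351 and 823 on the conventional arrays. Igkv6-14 101331_f_at had 29.8, 66.1 and 87.7 on the germ-free arrays and 614, 1204 and 735 on the conventional arrays. In both, the groups were far apart, and the log2 differences were -4.42 ± 1.03 and -3.87 ± 1.13 (adjusted p = 0.0652 and 0.131). Ighm 99420_at had 519, 726 and 1501 on the germ-free arrays and 3248, 5844 and 5293 on the conventional arrays, again with no overlap. The SE of each difference rests on the spread within all 8 groups. The kappa probe set 93086_at, which lists Igkc, overlapped fully, with 8612, 7157 and 12628 on the germ-free arrays and 5194, 13740 and 6068 on the conventional arrays. Over the 4 regions its log2 difference was below 0 in 2 and above 0 in 2.

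In the descending colon, 15 of the 61 (24.6%) had an unadjusted p under 0.05 on the lower side and 4 (6.56%) on the higher side, against 2.85% and 5.27% of all tested probe sets. By adjusted p 0 were called, where 0.0111% of all tested probe sets were called in either direction. The median log2 difference was -1.15 over the 61, against 0.06 over all tested probe sets. For 22 of the 76 all germ-free arrays lay under all conventional ones, where 4.38% of all probe sets did so without the filter. Ighg3 93927_f_at had 18.4, 34.5 and 59.1 on the germ-free arrays and 540, 389 and 81.1 on the conventional arrays. Ighm 99420_at had 196, 126 and 389 on the germ-free arrays and 2479, 2373 and 777 on the conventional arrays. In both, the groups did not overlap, and conventional array 3 was the nearest to the germ-free arrays. All germ-free arrays lay above all conventional ones for 4 of the 61, Igll1 99428_at, Ighd 101157_at, Igkv9-120 101347_at and Iglc1 93639_r_at, where 8.16% of all tested probe sets did so.

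In the rectum, 23 of the 61 (37.7%) had an unadjusted p under 0.05, all lower, against 1.7% of all tested probe sets on that side. Without the 3 contradictory arrays, of which conventional rectum 1 is in this region, 3 did (4.92%, against 1.14% of all). By adjusted p 0 were called, where 0.0111% of all tested probe sets were called in either direction. The median log2 difference was -1.19 over the 61, against 0.06 over all tested probe sets. For 7 of the 76 all germ-free arrays lay under all conventional ones, where 3.33% of all probe sets did so without the filter. Ighm 99420_at had 229, 87.9 and 2758 on the germ-free arrays and 6387, 2480 and 1773 on the conventional arrays. Germ-free array 3 was brighter than conventional arrays 2 and 3, so the groups overlapped. The probe set 101616_at had 28.7, 31.0 and 19.5 on the germ-free arrays and 187, 127 and 47.2 on the conventional arrays, with no overlap (log2 difference -1.97 ± 0.55). Without the 3 contradictory arrays the median over the 61 was -0.57, and without all 5 it was -0.24.

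In the corpus, 2 of the 61 (3.28%) had an unadjusted p under 0.05, both lower, under the 4.36% of all tested probe sets on that side, and 0 were called, where 0% of all tested probe sets were called. The median log2 difference was -0.48 over the 61, against 0.04 over all tested probe sets, and for 0 of the 76 did all germ-free arrays lie under all conventional ones, where 4.19% of all probe sets did so without the filter. Ighm 99420_at had 19.7, 574 and 384 on the germ-free arrays and 5288, 1856 and 15.7 on the conventional arrays. Conventional array 1 was bright and array 3 near the floor. The same order was seen for Igkv6-23 102156_f_at, with 116, 994 and 1043 on the germ-free arrays and 5796, 1875 and 25.6 on the conventional arrays. Without germ-free corpus array 3 and the other 2 contradictory arrays the median was -0.72 and 52 of the 61 were below 0.

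A test of whether the difference varied between the 4 regions (limma F test) called 0 of the 61, with 0 at an unadjusted p under 0.05, where 0.0221% of all tested probe sets were called. The regions are not shown to differ in the size of the difference. Without the filter the median over the 76 was -0.35 in the corpus, -1.11 in the jejunum, -0.87 in the descending colon and -0.81 in the rectum. Without the 3 contradictory arrays it was -0.49 in the corpus, -1.07 in the jejunum, -0.87 in the descending colon and -0.23 in the rectum. The difference was below 0 in all 4 regions for 38 of the 76, in 3 for 6, in 2 for 14, in 1 for 11 and in none for 7.

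Some probe sets showed little difference. Igh-VS107 102152_f_at was at 327 ± 95 on germ-free and 319 ± 83 on conventional arrays (log2 difference 0.02 ± 0.16, adjusted p = 0.965). The probe set 99421_at, a heavy variable one that also lists Ighg3, Igha and Ighm, was at 291 ± 85 on germ-free and 287 ± 62 on conventional arrays (adjusted p = 0.964). Both were above the floor on all 24 arrays, with a range of 159 to 492 for the first and 109 to 463 for the second.

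Lambda light chains, which mice use far less than kappa, were measured by a pair of probe sets that disagreed in the sign of the difference. Probe set 93638_s_at, which lists several lambda symbols, was above the floor on 1 of 12 germ-free arrays, jejunum 3 at 234, and on 8 of 12 conventional arrays. In the rectum it had 1.9, 2.0 and 5.8 on the germ-free arrays and 87.1, 204 and 88.0 on the conventional arrays. Those groups lay wholly apart, but the mean difference over regions, -1.28 ± 0.42, was not called (adjusted p = 0.122). Iglc1 93639_r_at, for a lambda constant region, was higher in value, at 68.0 ± 51.3 on germ-free and 32.0 ± 12.7 on conventional arrays, and was not called either (log2 difference 0.76 ± 0.33, adjusted p = 0.229). From corpus to rectum, it had 159.2, 121.5, 141.9 and 104.9 on the germ-free arrays numbered 3. It ran from 8.7 to 71.9 on the other germ-free arrays. The surrogate light chain Igll1 was at 99.3 ± 45.0 on germ-free and 73.9 ± 16.5 on conventional arrays for 99428_at (adjusted p = 0.454) and at 28.4 ± 17.3 on germ-free and 27.3 ± 13.4 on conventional arrays for 99429_at (adjusted p = 0.845). For Igll1 99428_at the germ-free arrays numbered 3 had 189.6, 136.1, 162.4 and 108.6, and the other germ-free arrays ran from 35.2 to 109.5.

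Genes that mark antibody-producing cells were set beside these values. Igha, the heavy chain of IgA, was at 1308 ± 1239 on germ-free and 4456 ± 3034 on conventional arrays for 100583_at (log2 difference -1.90 ± 0.59, adjusted p = 0.106), and of its family probe sets 97009_f_at was called (-1.63 ± 0.35, adjusted p = 0.0235) and 161486_f_at was not (-0.98 ± 0.36, adjusted p = 0.165). The call of Igha 97009_f_at was lost with the random block (adjusted p = 0.106 with an estimated correlation). Jchain, which links IgA and IgM into polymers, was at 324 ± 286 on germ-free and 1065 ± 680 on conventional arrays (-1.67 ± 0.51, adjusted p = 0.1). Germ-free rectum array 3 stood apart for these as well, with Jchain at 787 there and at 142 and 86.8 on the other germ-free rectum arrays. Pigr, the epithelial receptor that carries polymeric IgA into the lumen, was at 7417 ± 3824 on germ-free and 7300 ± 4059 on conventional arrays (log2 difference -0.02, adjusted p = 0.987). Without the 3 contradictory arrays, which include germ-free corpus 3 at 9355, its log2 difference was -0.40 (adjusted p = 0.327). In the jejunum Pigr had 7691, 5231 and 7288 on the germ-free arrays and 8838, 13713 and 9133 on the conventional arrays, with no overlap (adjusted p = 0.776).

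Lists of cell type genes were counted in the same way. Of 30 B cell probe sets, such as those for Ms4a1 (CD20) and the receptor subunit Cd79b, 23 passed the filter, and averaged over regions 20 were below 0, 0 were called and the median was -0.24, or -0.37 without the 3 contradictory arrays. In the jejunum 23 of 23 were below 0 with a median of -0.73 and 0 called, and the median was -0.85 without the 3. The transcription factor Spib had the lowest p there, at 26.2 ± 3.9 on germ-free and 103 ± 25 on conventional arrays (log2 difference -1.95 ± 0.46, adjusted p = 0.0652). The summed B cell signal of a jejunal array ran from 1816 to 2296 in germ-free and from 2854 to 4584 in conventional mice, without overlap. In the rectum the ranges overlapped, at 3506 to 3870 in germ-free and 2685 to 3690 in conventional mice, the lowest being conventional rectum 1, without which they ran from 3401 to 3690.

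Of 17 plasma cell probe sets 15 passed, with 12 below 0 over regions, a median of -0.09 and 1 called. This was Creld2, a chaperone of the endoplasmic reticulum, which fell by 0.52 ± 0.11 on the log2 scale, at 216 ± 44 on germ-free and 308 ± 52 on conventional arrays (adjusted p = 0.0242). Of 10 pan-leukocyte probe sets 9 passed and all 9 were below 0 over regions, with a median of -0.45 and 1 called, Laptm5, at 188 ± 27 on germ-free and 329 ± 109 on conventional arrays (adjusted p = 0.0319). In the jejunum all 9 were below 0 with a median of -1.11, or -1.31 without the 3 contradictory arrays, beside -1.56 and -1.45 over the 61 immunoglobulin probe sets. The leukocyte sum there ran from 910 to 1091 in germ-free and from 1730 to 2614 in conventional mice, and Cd53 was called (log2 difference -2.52 ± 0.56, adjusted p = 0.0444), but not without the 3 contradictory arrays (adjusted p = 0.066). Of 12 T cell probe sets 3 passed, with 0 called, and Cd3e, which defines T cells, averaged 18.1 on germ-free and 20.9 on conventional arrays, both under the floor. With the random block Creld2 and Laptm5 were not called (adjusted p = 0.11 and 0.109 with an estimated correlation). The part of these cell markers in the immunoglobulin result was not tested.

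Levels along the tract were compared as means over both states. In the jejunum, 49 of the 61 had a higher mean log2 signal than in the corpus. Of the 61, 8 rose and 2 fell in the jejunum (limma, adjusted p under 0.05), where 13.7% of all tested probe sets were called higher and 19.2% lower. The share of the 61 called is thus near or under that of all probe sets. The median log2 difference was 0.78 over the 61, against -0.10 over all. Igkv6-23 102156_f_at rose by 2.69 ± 0.93 (adjusted p = 0.0305), with means of 4618 ± 3260 in the jejunum and 1642 ± 2146 in the corpus (SD, n = 6 each). Igkv14-111 96974_at was at 97.0 ± 91.3 in the jejunum and 19.2 ± 9.7 in the corpus (1.61 ± 0.49, adjusted p = 0.0147).

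A heavy variable probe set went the other way. Igh-VS107 98776_at fell by 1.58 ± 0.31 on the log2 scale in the jejunum (limma, adjusted p = 0.000595), the lowest p of the 61. This probe set had passed the filter through corpus arrays alone, the group in which it was higher. It was at or under the floor on 16 of 24 arrays. Its p and its rank among the 61 are thus not independent of how it was admitted to the test. It had 4.5, 10.8 and 31.2 in germ-free and 9.6, 8.5 and 25.3 in conventional jejunum, against 86.1 and 116 on germ-free corpus arrays 1 and 2 and 47.2, 100.3 and 113.5 in conventional corpus. Germ-free corpus array 3, whose corpus markers were low, was under the floor, and outside the corpus no array was above 31.2 for this probe set. The count of 10 was 2 without conventional corpus array 3, 3 without germ-free corpus array 1, 5 without germ-free jejunum array 3 or conventional jejunum array 2, 17 without germ-free corpus array 3 and 30 without conventional corpus array 1, and it was 19 without the 3 contradictory arrays, where 38.6% of all tested probe sets were called in either direction. The shares of all probe sets without single arrays are not given here, so those counts cannot be set against them.

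Between the descending colon and the jejunum 0 of the 61 were called, where 14.4% of all tested probe sets were called. At an unadjusted p under 0.05, 3 (4.92%) were lower and 0 higher, against 10.2% and 18.4% of all tested probe sets. Both shares of the 61 are thus under those of all probe sets. The 3 were 101616_at, Igkv9-120 93904_f_at and Igkv14-111 96974_at, with log2 differences of -0.95 ± 0.39, -1.42 ± 0.66 and -1.01 ± 0.49 (adjusted p between 0.107 and 0.174). The median over the 61 was -0.54, against 0.10 over all. Igkv9-120 93904_f_at, for example, averaged 135 ± 102 in the descending colon and 446 ± 410 in the jejunum.

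Between the rectum and the descending colon 0 of the 61 were called, where 0% of all tested probe sets were called. At an unadjusted p under 0.05, 2 (3.28%) were higher and 0 lower, against 0.697% and 1.54% of all tested probe sets. The 2 were 101633_at, at 637 ± 1066 in the rectum and 128 ± 135 in the descending colon, and Ighv3-6 96970_at, at 360 ± 293 in the rectum and 130 ± 159 in the descending colon. The third lowest p belonged to Igkv14-111 100682_f_at (log2 difference 1.10 ± 0.57). For 101633_at a single array, conventional rectum 1 at 2801, which carries jejunal markers, stands far above the other rectum arrays, at 58.1 to 345.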

How the data were processed

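For each of 24 arrays the deposited values are linear signal intensities of 12488 probe sets. The mean of the middle 96% of values lay between 199.94 and 199.952 on every array, so the authors were taken to have scaled the intensities to equal trimmed means. Algorithm, software, detection calls and depth of signal over background are not given in the sources used here. Names come from the platform's annotation, in which 10855 probe sets list 1 symbol, 396 several and 1237 none. Of the 76 members, 73 matched RefSeq by Entrez identifier, with 0 symbols changed.

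From these values, a floor of 21.2 (the 25th percentile) was applied before log2, with no further scaling. A signal over 51.5 (percentile 40) on 3 or more arrays admitted 9033 probe sets to the tests, and 66 control probe sets were left out. A mean for each of the 8 groups was fitted with limma 3.58.1 in R 4.3.3 (statmod 1.5.0, moderated variance with an intensity trend), two-sided, with Benjamini-Hochberg adjustment over the 9033 and calls at an adjusted p under 0.05. On simulated data with 100 bright probe sets changed by 1 and 100 by 2 on the log2 scale among 8566, the fit recovered 57 and 93 for the jejunum, with 11 false calls, and 95 and 100 for the mean over regions, with 8. A fold is on the floored scale and is a bound if the lower group was at the floor throughout.

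The members, gene lists and rules were chosen with earlier results of these data known. Probe sets named were those called in a status comparison, the 3 brightest of each group, all heavy constant ones with 1 symbol and the 3 of lowest p in each regional comparison. Igkv15-103, Igkv9-120 101347_at, Ighv1-54 and those called little changed were named after their values were seen. Alternatives were other floors and filters, quantile normalization, equal array medians, no intensity trend, a replicate block, fits on fewer arrays and leaving out each array, 3 arrays or 5. No sequence is printed, because the probes' and segments' sequences were not used here. The number of arrays, 3 a group, limits the precision.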

Additional observations from a re-analysis of the deposited data

How the results depend on the processing

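No value changed direction past a threshold under any alternative. Averaged over regions, the 14 calls became 9 with no filter, 5 with the random replicate block and 5 without 5 arrays, and ran from 9 to 26 with each array left out. In the jejunum the 0 calls became 1 with no filter (Ighg3 102722_g_at, higher), 1 without 3 arrays and 1 without 5 (Igkv15-103 101329_f_at, lower both times), and ran from 0 to 1 with each array left out. In the descending colon 1 was called higher without 5 arrays (Ighm 96966_at), where 52 of all 9033 tested probe sets were. Of these, Igkv15-103 101329_f_at had passed the filter through conventional arrays alone and Ighm 96966_at through germ-free arrays alone. For jejunum minus corpus the 10 calls became 5 with the floor at the 40th percentile, 19 with equal array medians, 21 with the replicate block, 19 without 3 arrays and 18 without 5, and ran from 2 to 30 with each array left out. For descending colon minus jejunum the 0 calls became 1 with no filter and 6 with the arrays of those groups alone, and ran from 0 to 1 with each array left out. Without 3 arrays they became 2, where 1377 of all 9033 were called higher and 862 lower. Without 5 they became 3, where 1407 of all were called higher and 852 lower. In both of these regional comparisons, the shares of all probe sets under the other alternatives are not given here. The corpus, descending colon, rectum and F test counts ran from 0 to 0 with each array left out, as did rectum minus descending colon. The causes were not tested. Making array medians equal moved the median difference of all probe sets from 0.065 to -0.104 in the descending colon and from -0.098 to 0.082 for jejunum minus corpus, while that of the 61 moved from -1.146 to -1.32 and from 0.779 to 0.966. Equal numbers were not shown to pair arrays: deviations of equally numbered arrays of a state correlated between -0.497 and 0.666 over 36 pairs of regions, 16 of them over 0.1 (12 of 18 in germ-free and 4 of 18 in conventional mice), and the block's correlation was 0.12. Arrays number 3 a group, values at the floor have no order, and no detection calls were used here.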

Other observations

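Lists of genes that act around antibody production were also counted, averaged over the 4 regions and in the jejunum, and 0 of their tested probe sets were called by limma in either. Of 16 rearrangement and class switch probe sets 10 passed the filter, with a median log2 difference, germ-free minus conventional, of 0.07 over regions and -0.07 in the jejunum. At an unadjusted p under 0.05, there was 1 of these 10 over regions, a Vpreb1 probe set with a log2 difference of 0.55, and 0 in the jejunum. Over regions 10.7% of all tested probe sets were higher at that p, so 1 of 10 is near that share. Of 15 probe sets for plasma cell homing and help 7 passed, with medians of 0.11 over regions and -0.22 in the jejunum. At an unadjusted p under 0.05 there were 0 of these 7 over regions and 1 in the jejunum, Cxcl13, where 7.99% of all tested probe sets were lower at that p. Cxcl13 draws B cells into follicles as a chemokine and was at 46.3 ± 22.4 on germ-free and 121 ± 32 on conventional jejunum arrays (SD, n = 3 each; log2 difference -1.48 ± 0.58, unadjusted p = 0.0193, adjusted p = 0.262 in the limma fit). Ccl25, the small intestinal chemokine that attracts IgA plasma cells, was at 2578 ± 360 on germ-free and 1687 ± 1479 on conventional jejunum arrays (log2 difference 2.33 ± 1.49, adjusted p = 0.544 in the limma fit), and its log2 difference was 0.03 without the 3 arrays whose region markers went against their labels.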
